A study of Homo sapiens with 4 samples.

Results

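The regions described here are stretches of the genome where trimethylation of lysine 4 on histone H3 (H3K4me3) was called lower after 2.5 μM Tat-SID and that hold no transcription start site (TSS) of any annotated transcript, whether of a coding gene, a long non-coding RNA (lncRNA), a small RNA or a pseudogene. Of 2063 reduced regions, 176 met this rule, or 8.53% (exact 95% interval 7.36 to 9.82). They covered 625074 bp, 5.69% of all reduced bases. The remaining 1887 reduced regions held at least 1 TSS and serve as the comparison. The members were chosen by the authors' own comparison of H3K4me3 reads at 2.5 μM with untreated cells and by the annotation, so that they fell is the criterion and not a finding.

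H3K4me3 was profiled by native ChIP-Seq, without crosslinking, on micrococcal nuclease digested chromatin of MDA-MB-231, an established triple negative breast cancer line. The 3 H3K4me3 libraries came from untreated cells, from cells given 1 μM Tat-SID and from cells given 2.5 μM Tat-SID, with 1 library for each and 1 library of input DNA. Tat-SID is a cell-permeable peptide that carries the SIN3 interaction domain of MAD, which binds the PAH2 domain of the SIN3 corepressor. Treatment lasted 3 days, a time that the labels leave out, and neither genotype nor any other agent differed between the groups. The deposited lists hold only positions of regions that passed a false discovery rate threshold of 1e-15, as the list labels give it, with no level, fold or p-value per region and no read depth. The size of each reduction and the depth behind it are therefore not known from these files, no difference between conditions could be tested, and the identity of the cells could not be checked against markers. All intervals below are 95% intervals that cover counting error over regions only, and those of shares, medians and densities are exact. The regions came from the same libraries and are not replicates of a treatment. Both dose lists were made against the same untreated library.

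H3K4me3 is deposited by the SET1 and MLL (KMT2) methyltransferases and removed by KDM5 demethylases, and its strongest deposits sit at the TSS of active and poised genes, most of all where that TSS lies in a CpG island. Away from promoters, active enhancers carry mainly monomethylated lysine 4, although strongly active enhancers and the starts of unannotated transcripts can also carry the trimethylated form. SIN3 complexes hold histone deacetylases and can also contain a KDM5 enzyme.

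6 stretches of 200 bases are printed to show what such regions look like, in the GRCh37 build and on its plus strand. They were taken from the longest region, from the region farthest from any TSS, from a pair of regions in the VMP1 gene, and from the regions with the longest and the third longest CpG island. Within each region the stretch with the most motif matches outside exons was chosen, and where none matched, a stretch without a match is shown. Capitals mark matches, on either strand, to AP-1 (TGACTCA), RUNX (TGTGGTT), forkhead (TGTTTAC), the E-box of MYC and MXD (CACGTG), the E-box of SNAI and ZEB (CAGGTG), the TATA box (TATAAA) or NF-kappaB, and neighbouring TATA matches on opposite strands can overlap.
Longest region, EZRP1 neighbourhood, chr3:104158582-104158781: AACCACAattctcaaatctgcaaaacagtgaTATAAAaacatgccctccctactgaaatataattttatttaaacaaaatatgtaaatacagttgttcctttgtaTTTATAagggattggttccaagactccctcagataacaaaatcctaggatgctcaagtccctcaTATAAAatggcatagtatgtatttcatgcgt
Region farthest from any TSS, chr6:81894575-81894774: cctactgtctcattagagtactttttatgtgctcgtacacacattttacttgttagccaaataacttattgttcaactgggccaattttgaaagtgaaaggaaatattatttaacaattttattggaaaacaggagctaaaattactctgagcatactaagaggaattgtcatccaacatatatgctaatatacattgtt
VMP1 region 2 of 4, chr17:57863869-57864068: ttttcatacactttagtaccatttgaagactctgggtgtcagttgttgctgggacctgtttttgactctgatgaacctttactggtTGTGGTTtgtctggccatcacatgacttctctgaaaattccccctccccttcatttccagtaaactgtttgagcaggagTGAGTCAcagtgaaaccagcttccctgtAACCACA
VMP1 region 4 of 4, chr17:57904325-57904524: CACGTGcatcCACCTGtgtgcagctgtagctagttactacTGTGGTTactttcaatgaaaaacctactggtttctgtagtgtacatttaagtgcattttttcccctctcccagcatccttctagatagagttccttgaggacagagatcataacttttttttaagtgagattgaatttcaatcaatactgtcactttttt
CRYBG1 region, chr6:106958787-106958986: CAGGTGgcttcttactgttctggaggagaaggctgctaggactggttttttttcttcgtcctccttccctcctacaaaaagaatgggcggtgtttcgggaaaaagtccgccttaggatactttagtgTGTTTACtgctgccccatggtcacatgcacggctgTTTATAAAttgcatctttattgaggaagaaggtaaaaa
CDKN2C region, chr1:51442846-51443045: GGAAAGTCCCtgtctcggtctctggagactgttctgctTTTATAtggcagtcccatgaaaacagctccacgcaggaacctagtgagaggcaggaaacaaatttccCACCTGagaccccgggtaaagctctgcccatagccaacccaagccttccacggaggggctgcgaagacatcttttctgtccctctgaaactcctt
The 2 stretches from the longest and the farthest region are poor in G and C, at 32.5% and 31%, and the farthest held no match to any motif searched. The CRYBG1 and CDKN2C stretches held 45% and 53.0% G and C, and neither lay in the longest CpG island of its region. VMP1 region 2 of 4 shows an AP-1 match between a pair of RUNX matches. A match is a description of the letters and no evidence of binding.

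The 176 regions were spread over 21 chromosomes. Chromosomes 3 and 4 held 23 each, among 158 and 159 reduced regions, or 14.6% (9.46 to 21.0) and 14.5% (9.40 to 20.9). Chromosome 21 had the highest share, 5 of 17 (29.4%, 10.3 to 56.0), and chromosome 11 the lowest share among chromosomes with a region, 2 of 89 (2.25%, 0.273 to 7.88). Chromosome 1, with the most reduced regions, had 11 of 225 (4.89%, 2.47 to 8.58). None of the 31 reduced regions of chromosome 19 and none of the 11 of chromosome 22 lacked a TSS, which allows shares of up to 11.2% and 28.5%. Both limits lie above the share over all chromosomes.

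About equal numbers lay inside and outside genes. Outside any annotated gene were 86 regions (48.9%, 41.3 to 56.5), a further 71 (40.3%, 33.0 to 48.0) lay in introns only, and 19 (10.8%, 6.63 to 16.3) overlapped an exon by at least 1 bp. Of the 90 inside a gene, 60 overlapped a protein-coding gene and 30 overlapped only non-coding genes. Among regions whose middle fell in an intron of the canonical coding transcript, 48 in all, 15 fell in the first intron and 5 in the last. The lengths of introns were not taken into account, nor was the share of the genome that lies in genes. In total 90 of the 64486 annotated genes of any type held part of such a region, or 0.14%.

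Where exons were touched, they usually made up a small part. The exonic share of the 19 regions had a median of 7.25% (3.75 to 27.8) and a range of 0.772% to 54.4%. The exonic bases had a median of 314 bp. Only the LRBA region, chr4:151229351-151233799, was mostly exonic, with 2419 of its 4449 bp (54.4%). LRBA is a large protein of vesicle trafficking, and the middle of the region fell in intron 51 of 56. Next came a region of ANKRD30B (49.1% exonic), VMP1 region 2 of 4 (39.9%), a region of GABRA2, a GABA receptor subunit (28.0%), and one of CRYBG1, a protein with crystallin domains (27.8%).

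Most regions lay far from a TSS. The distance from the region's edge to the nearest TSS of any kind had a median of 22.6 kb (18.2 to 29.0), with quartiles of 9.06 and 51.9 kb and a range of 0.035 to 350 kb. Within 1 kb of a TSS were 3 regions, 12 lay at 1 to 3 kb, 31 at 3 to 10 kb, 83 at 10 to 50 kb, 27 at 50 to 100 kb and 20 beyond 100 kb. Bins from 10 to 50 kb thus held the most regions, 47.2% (39.6 to 54.8). To the nearest protein-coding TSS the median was 141 kb (102 to 186), and 50 regions lay more than 500 kb from one. Only 15 lay within 10 kb of a coding TSS.

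**Figure D1:**
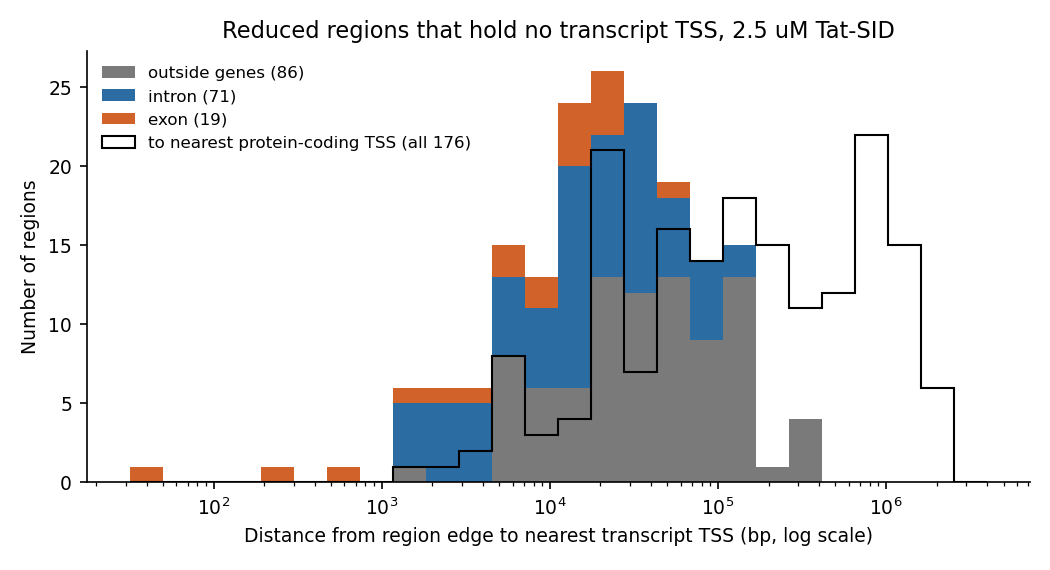
Number of the 176 reduced regions without a TSS (vertical axis) by distance in bp to the nearest transcript TSS on a log scale, stacked by place (86 outside genes, 71 in introns, 19 touching exons), with the distance to the nearest protein-coding TSS as a black outline. The filled bars peak between 10 and 50 kb, while the outline, with a median of 141 kb, reaches beyond 1 Mb.

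The nearest TSS belonged to an lncRNA for 56 regions, to a protein-coding gene for 46, to a pseudogene for 35, to a small RNA such as a microRNA or an snRNA for 37, and to a transcript of unsettled type for 2. The share of each type among all annotated TSS was not computed, so these counts show no preference.

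Regions more often lay downstream of their nearest TSS, in its direction of transcription, than upstream. The side was set by strand alone, and the transcript need not reach the region. Downstream lay 110 of 176 (62.5%, 54.9 to 69.7). Neighbouring regions can share a nearest TSS, so this interval is too narrow. Inside a gene lay 90 of the 176, and the share that the annotation alone would give was not computed. For the nearest coding TSS the split was 79 downstream and 97 upstream (55.1% upstream, 47.4 to 62.6), an interval that holds an even split.

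The threshold of the rule separated regions that differed by a few bases. Just inside it, the SEMA3A region, chr7:83998251-84001549, ended 35 bp from a TSS of this secreted guidance protein. The region at PTGER4, a prostaglandin E2 receptor, ended 197 bp from a TSS, and the one in FSIP2, a protein of the sperm tail sheath, 584 bp from one. Just outside it, regions at C1GALT1, CST4 and ENSG00000271788 held a single TSS each, 14, 74 and 94 bp from their edge. The distances of 14 to 94 bp are of the order of the 50 bp windows with which regions were called. Those at PTGER4 and FSIP2 are longer.

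The regions without a TSS were shorter than those with one. Their median length was 3299 bp (2899 to 3499), with quartiles of 1549 and 4699 bp and a range of 199 to 15299 bp, against 5099 bp (4999 to 5149) and a range of 1349 to 27349 bp for regions holding a TSS. Fewer than 1000 bp were covered by 21 of 176 (11.9%, 7.54 to 17.7) and by 0 of 1887, which allows a share of up to 0.195%. A longer stretch has more room to contain a TSS, so length and the rule are not independent. Regions outside and inside genes had similar medians, 3424 bp (2699 to 3949) and 3049 bp (2649 to 3499).

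At 1 μM, 141 regions were called reduced, and 12 of them (8.51%, 4.48 to 14.4) held no TSS. These 12 overlapped 13 of the 176 regions at 2.5 μM (7.39%, 3.99 to 12.3). The share among regions with a TSS was 130 of 1887 (6.89%, 5.79 to 8.13), within that interval. In the 13, the bases shared with the 1 μM list made up 95.5% to 100% of the 2.5 μM region. The end was identical in 11 of the 12, and in 6 of these the start was too. Since the untreated library is common to both lists, such shared edges are no independent measurement.

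The regions called at both doses were long. Their median length was 8099 bp (4699 to 11899) against 3049 bp (2649 to 3399) for the other 163, and 7 of the 10 longest regions were among them. The same held where a TSS was present, with a median of 8499 bp (7799 to 8949) for the 130 called at both doses. Outside genes 11 of 86 regions were called at both doses (12.8%, 6.56 to 21.7), and inside genes 2 of 90 (2.22%, 0.270 to 7.80). These intervals overlap between 6.56% and 7.80%. The 2 inside genes lay in an intron of ADAMTS12 and in an intron of the lncRNA ENSG00000287544.

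**Figure D2:**
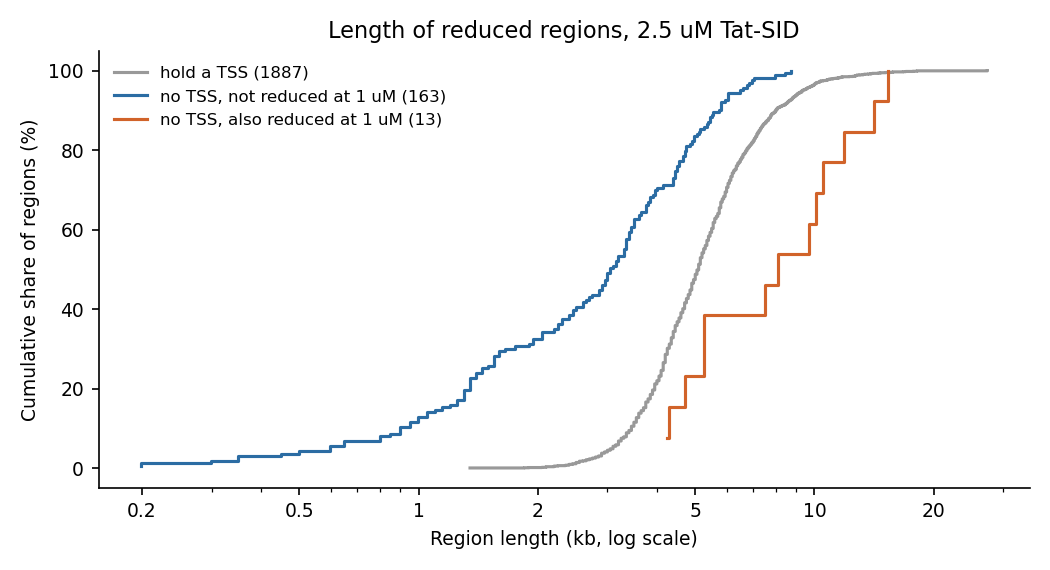
Cumulative share of regions (vertical axis, %) by length in kb on a log scale, for 1887 reduced regions holding a TSS, 163 without a TSS that were not reduced at 1 μM, and 13 without a TSS that were reduced at both doses. The curve of the 163 lies to the left of the regions with a TSS and that of the 13 to the right, with medians of 3049, 5099 and 8099 bp.

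The longest region, chr3:104151601-104166899, spanned 15299 bp outside any gene, with the same edges at both doses. Its nearest TSS, 54.6 kb away, was that of EZRP1, an ezrin pseudogene, and its nearest coding TSS was that of ALCAM, a cell adhesion molecule, at 919 kb, which itself lay in a reduced region. Second in length was chr4:35099651-35113799 with 14149 bp, also identical at both doses, 1099 kb from the coding TSS of ARAP2. A further region called at both doses, chr4:35021851-35029349 (7499 bp), lay 70.3 kb from it.

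A single 1 μM region, chr3:84284201-84298249 (14049 bp), spanned a pair of 2.5 μM regions that were 151 bp apart and 4249 and 10099 bp long, 719.7 and 709 kb upstream of the coding TSS of CADM2. The longest region inside a coding gene was chr5:33851651-33859749, 8099 bp in intron 2 of ADAMTS12, a secreted metalloproteinase. It was 32.3 kb downstream of the coding TSS, and at 1 μM its region spanned 8499 bp. No TSS of ADAMTS12 lay in a reduced region. The 3 of the 10 longest regions that were not called at 1 μM were 8749, 8449 and 7949 bp long, on chromosomes 8, 14 and 2, and the last lay in an intron of the lncRNA ENSG00000231918.

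The other regions called at both doses included chrX:45659501-45663799 (4299 bp), 29.8 kb upstream of MIR222HG. MIR222HG is the host transcript of the microRNAs miR-221 and miR-222, and 3 of its 4 transcript TSS lay in a reduced region. chr4:177841851-177847099 (5249 bp) lay 128 kb upstream of the nearest coding TSS of VEGFC, a growth factor of lymphatic vessels, and that TSS lay in a reduced region. chr1:98551951-98557199 (5249 bp) lay 165 kb upstream of the nearest coding TSS of DPYD, an enzyme of pyrimidine breakdown, and that TSS was also reduced. On chromosome 12, chr12:74989051-74993749 (4699 bp) lay 57.4 kb downstream of ATXN7L3B.

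The 5 regions farthest from a TSS lay outside genes, and 3 of them were shorter than the median. The farthest, chr6:81894501-81894849, was 349 bp long and 350 kb from the nearest TSS. A pair on chromosome 14, chr14:83827451-83835899 (8449 bp) and chr14:83851301-83856199 (4899 bp), lay 15.4 kb apart and 1827 and 1851 kb upstream of the nearest coding TSS, that of SEL1L. The others covered 449 bp on chromosome 18, 324 kb from a TSS, and 1449 bp on chromosome 3, 220 kb from one.

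The share of regions whose nearest TSS was itself reduced was near the share among all annotated TSS. The nearest TSS lay in another reduced region for 9 of 176 (5.11%, 2.36 to 9.49), beside 6.79% of all TSS positions and 4.89% of all genes. For the nearest coding TSS this was so for 30 of 176 (17.0%, 11.8 to 23.4), for 11 of the 53 within 50 kb (20.8%, 10.8 to 34.1) and for 2 of the 15 within 10 kb (13.3%, 1.66 to 40.5). Of all protein-coding TSS positions, 9.99% lay in a reduced region, a share below the first 2 intervals and inside the third. However, TSS of a gene lie close together and are not independent. Among the 30, pairs of regions shared the same nearest coding TSS, as at DPYD, DCBLD2, VEGFC and VMP1. The interval over all 176 is therefore too narrow, and a difference from 9.99% was not tested. The share within 10 kb is poorly determined.

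The 2 regions within 10 kb were at PTGER4 and CDKN2C. chr5:40682001-40685499 (3499 bp) lay 551 bp past a reduced region that held TSS of PTGER4, and it touched 27 bp of exon. chr1:51441801-51447849 (6049 bp) lay 5.88 kb downstream of a TSS of CDKN2C, an inhibitor of the cell cycle kinases CDK4 and CDK6, and 2501 bp past a 6899 bp region that held 2 of the 3 CDKN2C transcript TSS. Among regions 10 to 50 kb from a reduced coding TSS were one 18.0 kb upstream of ANXA1, a phospholipid-binding protein, one 18.4 kb downstream of a TSS of FKBP5, a co-chaperone of steroid receptors, one 21.1 kb upstream of a TSS of AHR, the ligand-activated aryl hydrocarbon receptor, and one 22.8 kb upstream of TOP1, a DNA topoisomerase. These 4 were named after their values were seen.

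Close neighbours made up a higher share than among regions with a TSS, with intervals that just overlap. Another reduced region lay within 10 kb of 14 of the 176 (7.95%, 4.42 to 13.0) and of 66 of 1887 (3.50%, 2.72 to 4.43). The neighbour was another region without a TSS in 10 of the 14 and a region with one in 4. Those 10 form pairs that are each counted from both sides. They are not independent, so the interval of this share is too narrow. The median distance to the next reduced region was nevertheless larger, 414 kb (268 to 564) against 283 kb (263 to 317). The smallest gap, 151 bp, is below the gap of 400 bp that the study's methods give for calling regions.

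Linking regions without a TSS that were at most 50 kb apart gave 10 runs with 22 regions, of which 9 were pairs. The only longer run, 4 regions over 79.5 kb, chr17:57829001-57908549, lay entirely in VMP1, a membrane protein of the endoplasmic reticulum that acts in autophagy. Its regions were 5549, 5399, 2899 and 5499 bp long, and 4801 bp past the last one came a reduced region of 8249 bp that held TSS of VMP1 and of MIR21, the gene of the microRNA miR-21. Of 20 VMP1 transcript TSS, 19 lay in a reduced region, so that the start of the gene, its end and 4 stretches between were all called reduced. None of the 4 was called at 1 μM.

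Other pairs lay in the lncRNA ENSG00000239462 near LINC00973 (2999 and 3049 bp, 1951 bp apart), with the nearest TSS of LINC00973 and of DCBLD2 both reduced, and near TARS2P1 (6599 and 3749 bp, 651 bp apart). FMN1, which encodes the actin nucleator formin 1, held a pair in intron 4 that spanned 17.8 kb. Away from runs, chr11:65673851-65680799 (6949 bp) lay 5.03 kb downstream of its nearest TSS, that of C11orf68, which was not in a reduced region. It also lay 1951 bp from a 17749 bp reduced region that held TSS of CCDC85B, FIBP and FOSL1, a subunit of AP-1. This region met none of the rules by which regions were named. The lncRNA ENSG00000231918 held 4 regions that were more than 50 kb apart.

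The regions were poor in G and C. Their GC content had a median of 35.6% (34.5 to 36.4) and a range of 25.4% to 50.7%, and was lower than that of the 10 kb flanks on both sides by a median of 1.26 percentage points (0.54 to 2.30). Only 68 of 176 (38.6%, 31.4 to 46.3) were richer in GC than their flanks. Regions with a TSS had a median of 45.6% (45.4 to 45.8), 4.95 percentage points above their flanks, and 86.7% (85.1 to 88.2) of them exceeded their flanks. CpG dinucleotides were still denser than in the flanks, at a median of 8.08 per kb (7.35 to 8.83) against 6.40 (5.85 to 6.75), while regions with a TSS had 30.5 per kb (29.8 to 31.1).

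**Figure D3:**
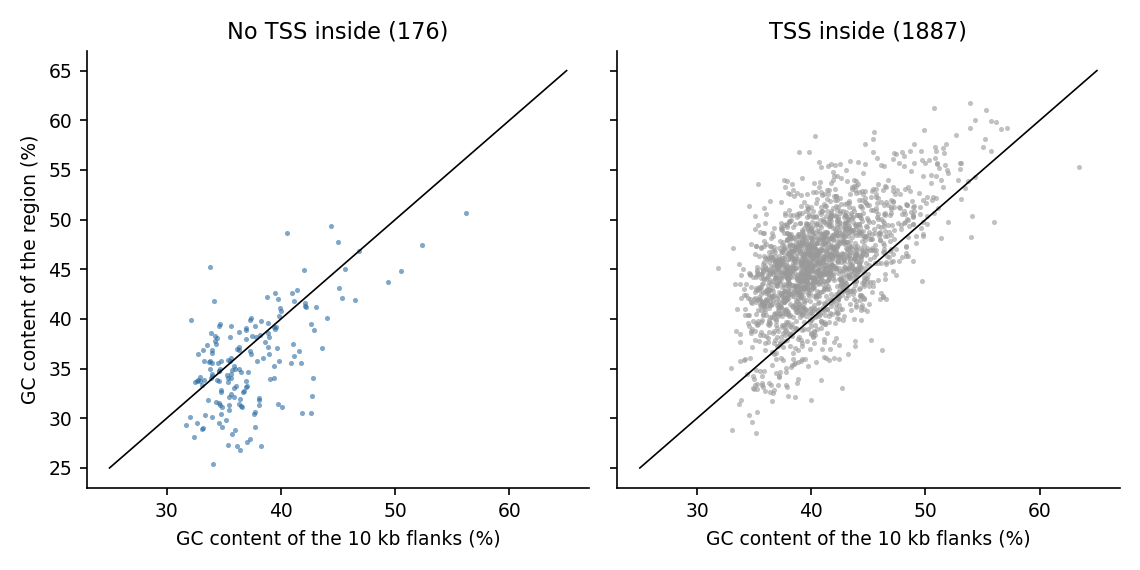
GC content of each region (vertical axis, %) against that of its 10 kb flanks (horizontal axis, %), with 176 reduced regions without a TSS on the left and 1887 with a TSS on the right; the line marks equal values. Of the former 38.6% lie above the line, and of the latter 86.7%.

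A CpG island was here a stretch of at least 200 bp in which every 200 bp window passed set limits. These were a GC content over 50% and an observed to expected CpG ratio over 0.6. Such an island was present in 66 of 176 regions (37.5%, 30.3 to 45.1). Among regions with a TSS the share was 92.8% (91.5 to 93.9). The islands without a TSS were short, with a median of 304 bp (258 to 341) against 923 bp (898 to 947). Only 5 regions (2.84%, 0.929 to 6.50) had an island of 500 bp or more, against 81.1% (79.3 to 82.9) of regions with a TSS.

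These 5 islands differed in their surroundings. The longest, 1267 bp, lay in the CRYBG1 region, chr6:106957801-106963599, 25.4 kb from the nearest TSS of the gene, and that region had a GC content of 48.7%. An island of 882 bp lay in a region 22.2 kb upstream of PBDC1, in which 56.0% of 70-base sequences recurred elsewhere in the genome. Islands of 713, 588 and 572 bp lay in the CDKN2C region, in a region 4.52 kb downstream of HSPA6, an inducible member of the HSP70 chaperones, and in intron 1 of ELAPOR2. Only the CDKN2C region had its nearest TSS in another reduced region. The next 5 islands, of 462 to 485 bp, lay in regions near GUSBP13, in FAM133A, near the microRNA gene AC095061.1, in the lncRNA ENSG00000231918 and in CRADD, a death domain adaptor. Among these, the nearest TSS was reduced for FAM133A alone.

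Motif matches were counted in the regions and in their flanks. The intervals of ratios cover only the count inside the regions. They take the flank count as known and matches as independent, and are therefore too narrow. AP-1, the FOS and JUN dimer, matched 127 times in the regions, 0.203 per kb (0.169 to 0.242), against 0.158 per kb in the flanks, a ratio of 1.29 (1.07 to 1.53). In regions with a TSS the ratio was 0.994 (0.946 to 1.04). The central 1000 bp held a match in 32 of the 155 regions of at least that length (20.6%, 14.6 to 27.9) and in 11.1% (9.74 to 12.6) of regions with a TSS. The groups differ in base composition and in the presence of a CpG island, and the part of either in this difference was not tested.

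The AP-1 matches were spread over 79 of the 176 regions, 31 of which held at least 2 and 5 at least 4. The most, 5, were in a region in an intron of IL1RAPL1, a synaptic membrane protein. The longest region and VMP1 region 2 of 4 were among those with 4.

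Motifs typical of CpG-rich promoters were rarer than in regions with a TSS. The KLF and SP motif (GGGCGGGG) matched 25 times, 2.93 times (1.90 to 4.33) its density in the flanks, against 10.7 times (10.4 to 11.1) in regions with a TSS. It was in the central 1000 bp of 2.58% (0.708 to 6.48) against 25.7% (23.7 to 27.7). The E-box of MYC and MXD, the factor family to which MAD belongs, was in 5.16% (2.25 to 9.92) against 12.6% (11.1 to 14.2), with a ratio to the flanks of 1.13 (0.830 to 1.49). TATAAA was in 82.6% (75.7 to 88.2) of central stretches against 44.1% (41.8 to 46.4), and its density was 1.06 times that of the flanks (1.00 to 1.12).

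The E-box of SNAI and ZEB was less dense than in the flanks, with a ratio of 0.857 (0.768 to 0.953), against 0.666 (0.651 to 0.682) in regions with a TSS, where it was more depleted. For RUNX, forkhead, TEAD and this E-box, the intervals of the central shares overlapped those of regions with a TSS. RUNX was in 17.4% (11.8 to 24.3) of central stretches against 13.7% (12.2 to 15.3), forkhead in 18.1% (12.4 to 25.0) against 14.5% (12.9 to 16.1), TEAD (ACATTCC) in 9.68% (5.52 to 15.5) against 13.0% (11.5 to 14.6), and the E-box of SNAI and ZEB in 38.1% (30.4 to 46.2) against 44.8% (42.6 to 47.1). CRE (TGACGTCA), ETS (CCGGAAGT), NF-kappaB and CTCF matched 2, 8, 3 and 1 times and are too rare to compare.

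**Figure D4:**
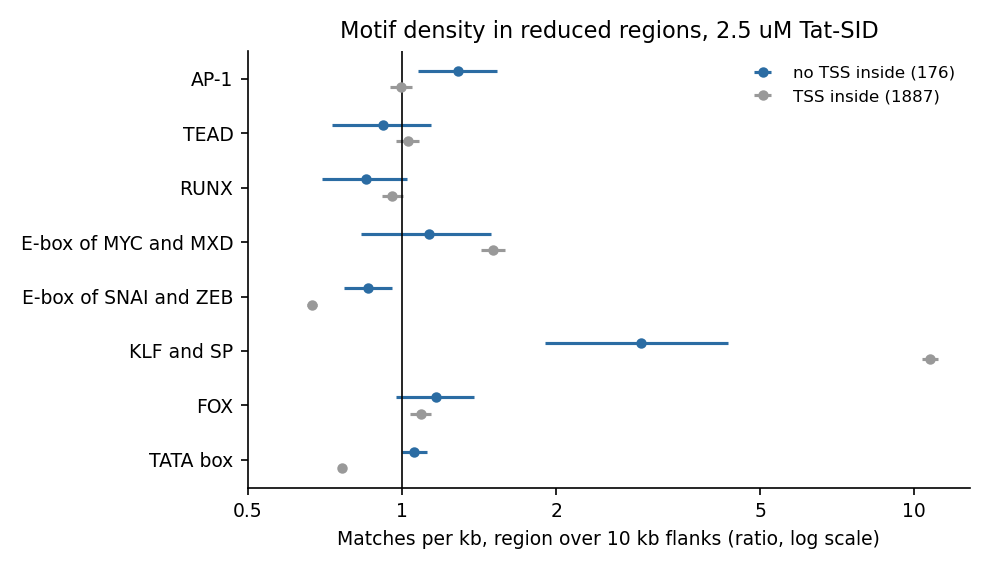
Motif matches per kb in regions relative to their 10 kb flanks (horizontal axis, ratio, log scale), for motifs with at least 20 matches. Blue marks 176 reduced regions without a TSS and grey marks 1887 with a TSS. Bars are 95% counting intervals of the matches inside the regions. AP-1 stands at 1.29 without a TSS and 0.994 with one, and KLF and SP at 2.93 and 10.7.

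Exact recurrence of 70-base sequences in the genome was rare in most regions. Reads were aligned with a seed of 70 bases, so the share of each region's 70-base sequences that occur elsewhere in GRCh37, on either strand, was computed. In 94 of 176 regions (53.4%, 45.8 to 60.9) none recurred, as in 54.6% (52.3 to 56.8) of regions with a TSS. At least 50% recurred in 7 regions (3.98%, 1.61 to 8.02) and in 24 of 1887 with a TSS (1.27%, 0.817 to 1.89). Shorter sequences recurred more. Of 24-base sequences, a median of 8.91% (7.14 to 11.8) recurred, against 5.54% (5.25 to 5.88) in regions with a TSS.

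These 7 include a pair of the longest. On chromosome 9, chr9:66691301-66700999 (9699 bp) and chr9:69873751-69884249 (10499 bp) recurred at 83.2% and 82.2%, and shared 7898 of their 70-base sequences with each other. Both were called at both doses. A read from one copy can be placed at the other. The others were a region near GUSBP13 (98.1%), the pair in ST8SIA1 (93.2% and 81.2%, with 950 sequences in common), the PBDC1 region (56.0%) and chr1:144540701-144545149 (64.8%). Whether the reads of these regions came from the listed place was not tested. Without these 7 regions, 6.51% were also called at 1 μM and the median length was 3199 bp.

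**Figure D5:**
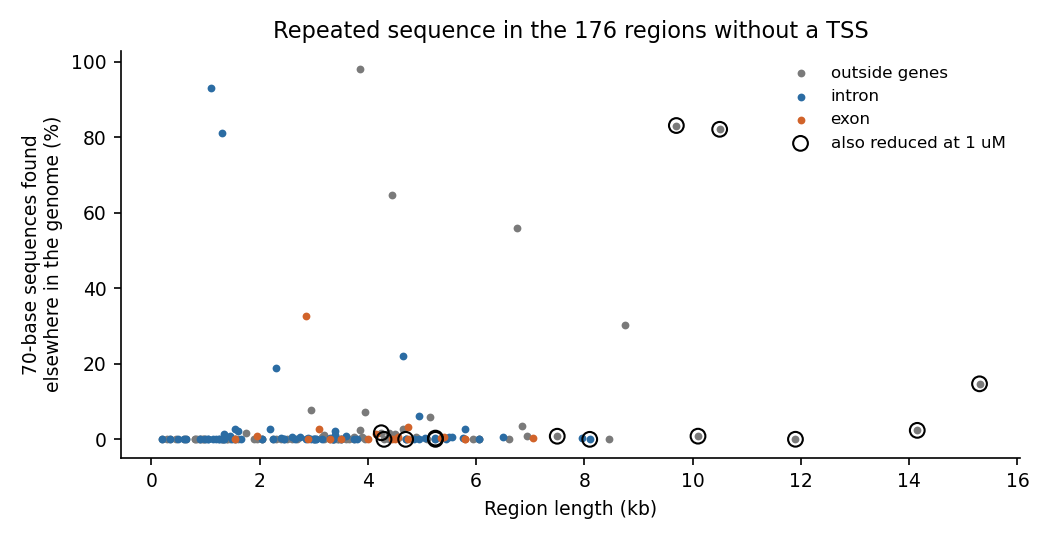
Share of 70-base sequences found elsewhere in the genome (vertical axis, %) against region length in kb for the 176 regions without a TSS, coloured by place; circles mark the 13 that were also reduced at 1 μM. Most points lie near 0, and the 2 circled points above 80% are the pair on chromosome 9.

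Few genes of lists relevant to this cell line and peptide held a region without a TSS. The lists held regulators of the epithelial to mesenchymal transition, breast stem cell markers, AP-1 and ATF factors, TGF-beta, YAP and EGFR pathways, integrins, cytokines, SIN3 and H3K4 enzymes, and luminal and basal factors. Of 188 listed genes with an annotation, 2 held a region without a TSS, AMOTL1 and ESR1. Over all annotated genes the share was 0.14%, and over protein-coding genes 0.278%, so that the listed genes were above both by a count of 2, too few to describe a difference. By contrast 61 (32.4%) had a TSS of their own in a reduced region. This was so for 4.89% of all annotated genes, many of which are silent in any one cell type. Of protein-coding TSS positions, 9.99% lay in a reduced region. The lists were chosen with earlier results of these data known, so the higher share of listed genes is no independent result. No other listed gene was the one with the nearest TSS, within 100 kb, of a region.

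Both genes lacked a reduced TSS. AMOTL1, an angiomotin family protein that binds YAP, held chr11:94526701-94530699 (3999 bp), 22.8 kb from its nearest TSS, with a middle in intron 2 of 12, 150 bp of exon and 2 AP-1 matches. ESR1, the estrogen receptor alpha, held 2 regions, of 2999 and 1299 bp. The first lay 38.8 kb upstream of the nearest coding TSS of the gene, and the second, chr6:152346651-152347949, lay in intron 5 of 7 with a GC content of 27.3%, and 123 kb from the nearest coding TSS, that of SYNE1. Neither was called at 1 μM.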

How the data were processed

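Native ChIP-Seq of H3K4me3 was performed by the authors in untreated MDA-MB-231 cells and cells given 1 or 2.5 μM Tat-SID. Per the study's methods and the submitters' processing notes, which also name FastQC 0.10.0 and MACS2 2.1.0, reads were aligned to hg19 with Bowtie 1.0.0 (seed of 70 bases, 2 mismatches, up to 20 places, 1 reported). Regions were called with SICER-df (windows of 50 bp, gap of 400 bp). The deposited lists give the start and end of each region in bp, and no score, count or signal. The threshold in the list labels, 1e-15, is also the one that the study's results give for reduced H3K4me3. It is stricter than the one the methods name for treated against untreated cells. The input library and the list of regions increased at 1 μM were not used here.

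From the lists, the TSS, genes and exons of GENCODE 44, lifted to GRCh37 (254413 transcripts, 64486 genes), were compared with each region, read as 0-based starts and printed as 1-based positions. Python 3.11.15 with pandas 2.3.3, scipy 1.17.1, pysam 0.24.0 and numba 0.67.0 and samtools 1.23.1 were used, and each routine was tested on simulated data. Shares have exact Clopper-Pearson intervals, medians exact order-statistic intervals, and motif densities exact Poisson intervals at 95%. For ratios to the flanks, the Poisson interval of the density inside regions was divided by the flank density, taken as fixed. No library was replicated, so no test was made. The members, gene lists and measures were chosen with earlier results of these data known. Regions named were the 10 longest, all called at both doses, the 5 farthest from a TSS, the 5 most exonic, those in or nearest to a listed gene, the 10 with the longest CpG islands, the longest runs, and those nearest to the threshold of the rule. Limiting the printed stretches to bases outside exons, in regions with less than 50% repeated sequence, was decided after seeing the data. Alternatives were other TSS sets and distances, a minimum length of 1000 bp, merging, other overlap rules, flanks of 20 kb and 50-base sequences.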

Additional observations from a re-analysis of the deposited data

How the results depend on the processing

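The number of regions without a TSS depended most on which TSS were counted. It rose from 176 to 403 (19.5% of reduced regions) when only the start of each gene was used and to 335 (16.2%) with protein-coding transcripts only, because fewer TSS were counted. With GENCODE basic transcripts the share was 9.94%, and with no TSS within 10000 bp it was 6.30%. With protein-coding genes only, 65.9% lay outside genes. With the middle base in place of any overlap, 1.70% lay in exons. The median distance to a TSS was 34.9 kb with no TSS within 10000 bp, 29.4 kb to the start of a gene and 141 kb to protein-coding transcripts, and the share whose nearest TSS was reduced was 17.0% for protein-coding TSS. In the central 1000 bp the AP-1 density was 1.59 times that of the flanks. The other alternatives left each value within its 95% interval, or each count within 1.5 times. Leaving out the 7 regions of repeated sequence and merging regions within 400 bp (175 left) were added after seeing the data. No paired analysis was possible because only 1 library was made of each condition. Regions could not be limited to a stricter threshold, as they carry no p-value. The precision of every share is limited by the 176 regions, and the files used here give no read depth.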

Other observations

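The list of regions increased at 2.5 μM held 3 regions, none with a TSS. Between 53.5% and 65.1% of their 70-base sequences recurred elsewhere in the genome.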
